A study of Rattus norvegicus with 32 samples.

Results

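The comparison described here set the uterus of rats given the highest dose of bisphenol A (BPA), 25000 µg per kg body weight per day, against the uterus of rats given the highest dose of ethinyl estradiol (EE2), 0.5 µg per kg per day. Each group held 4 libraries, so 8 of the 32 RNA sequencing libraries of the series entered the contrast. The vehicle controls entered no contrast between the agents and serve only as a background level. BPA is a plastics monomer that binds estrogen receptors weakly, and EE2 is the potent synthetic estrogen of contraceptive pills. All the animals were Sprague-Dawley rats of the NCTR colony (strain label Sprague-Dawley/CD23/NctrBR), and all uteri were collected at the age labelled PND365, a postnatal day. Dosing was by gavage, to the dams from gestation day 6 until labor and then to the pups themselves from postnatal day 1 until collection, with 0.3% carboxymethylcellulose (CMC) as the vehicle that every group shared. The labels name no animal, litter, batch or stage of the estrous cycle. The p-values therefore measure the spread between libraries, which may be partly technical, and the 2 doses were not matched for potency.

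Estrogens act in the uterus through the nuclear receptors ESR1 and ESR2, which drive growth, fluid uptake and the expression of the progesterone receptor and of secreted epithelial proteins. The lining of the uterine horns is a simple columnar epithelium, while the cervix and vagina carry a stratified squamous epithelium whose basal cells express Krt5, Krt14 and Tp63. Estrogen exposure, above all when it begins early in life, is known to cause squamous metaplasia in the rodent uterus, in which a stratified epithelium stands in the place of the columnar one.

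The promoters of 4 genes with large differences are printed here, 250 bases up to the start of each gene, as RefSeq gives them for GRCr8, the current rat assembly. Krt5 is at chr7:134730570-134730819 on the minus strand, Igfbp1 at chr14:86261027-86261276 on the plus strand, Cyp26a1 at chr1:244883572-244883821 on the plus strand and Plau at chr15:3511988-3512237 on the minus strand. Krt5 was higher in EE2 0.5, and the other 3 were higher in BPA 25000. The 4 were picked by hand and do not represent all genes of either direction. Capitals mark GGTCA, 1 arm of an estrogen response element, and AGTTCA, the half-site of retinoic acid receptors, each on either strand (TGACC and TGAACT are the reverse complements).
Krt5: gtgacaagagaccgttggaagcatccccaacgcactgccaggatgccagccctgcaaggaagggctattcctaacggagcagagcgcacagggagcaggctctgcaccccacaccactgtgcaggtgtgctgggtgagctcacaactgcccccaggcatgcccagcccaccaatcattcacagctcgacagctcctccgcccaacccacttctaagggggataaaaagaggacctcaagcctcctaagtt
Igfbp1: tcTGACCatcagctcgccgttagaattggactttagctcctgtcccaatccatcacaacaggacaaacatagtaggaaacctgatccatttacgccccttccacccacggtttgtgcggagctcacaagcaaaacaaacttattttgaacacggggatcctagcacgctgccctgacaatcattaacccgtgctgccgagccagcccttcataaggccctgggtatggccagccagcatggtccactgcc
Cyp26a1: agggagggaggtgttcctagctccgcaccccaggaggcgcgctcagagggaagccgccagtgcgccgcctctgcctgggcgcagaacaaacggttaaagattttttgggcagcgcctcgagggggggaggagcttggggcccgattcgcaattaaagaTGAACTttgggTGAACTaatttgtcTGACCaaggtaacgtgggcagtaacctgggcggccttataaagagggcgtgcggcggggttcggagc
Plau: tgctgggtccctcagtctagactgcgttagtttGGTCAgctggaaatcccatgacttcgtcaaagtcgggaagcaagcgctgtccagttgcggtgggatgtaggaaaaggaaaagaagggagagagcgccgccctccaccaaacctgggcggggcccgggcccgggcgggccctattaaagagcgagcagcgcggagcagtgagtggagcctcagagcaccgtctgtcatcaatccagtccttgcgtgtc

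The Krt5 window held neither motif. Igfbp1 held 1 GGTCA match, 248 bases before the start, and Plau held 1, at 217 bases. Cyp26a1 held 1 GGTCA match at 67 bases and 2 AGTTCA matches at 92 and 81 bases with 5 bases between them, a direct repeat of the kind that retinoic acid receptors bind, and TATAAA at 31 bases. GGTCA occurred in 35.4% of all 33469 promoter windows of this length, AGTTCA in 12.2% and TATAAA in 12.9%. The full palindromic element, GGTCA and then TGACC with 3 bases between them, occurred in 8 windows, or 0.0239%. Of 10 genes among those with the smallest p in either direction, all named in the text, 8 had a window, 1 of them (Plau) held GGTCA and 0 held the full palindrome. No window was matched for Krt14, S100a1 or F3.

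Total counts ran from 14155992 to 19568862 in EE2 0.5 and from 16130546 to 23078311 in BPA 25000. Markers of uterine tissue were expressed in these 8 libraries. Esr1 lay between 70.7 and 209.6 CPM (CPM is counts scaled to the library total after TMM normalisation). The epithelial keratin Krt8 lay between 141 and 428 CPM, and the smooth muscle myosin Myh11 between 4291 and 7979 CPM. Hoxa10 and Hoxa11, also planned as uterine markers, were missing from the counts. Whether the samples held any cervix was not tested. BPA 25000 library 3 stood apart, with a median Spearman correlation of 0.943 with the other 31 libraries of the series, against 0.960 to 0.968 for the other 7 of this contrast. Within BPA 25000, libraries 2 and 4 were the most alike pair. Their counts differed by a chi-square of 12.98 per degree of freedom, against 78.0 to 169 for the other pairs of that group and 42.5 to 102 within EE2 0.5. This was above sampling noise, so they were kept as 2 samples. Whether they came from 1 animal cannot be told from this value. Several results are therefore given with and without them, or without library 3.

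No gene passed the edgeR test of the contrast at the threshold used. Of 13312 genes tested, edgeR called 0 (0%) at an adjusted p under 0.05, and the smallest adjusted p was 0.0983. Among the 4 genes under 0.1 were Krt5 and Krt14, both lower in BPA 25000, and Rgs5, which was higher. At an unadjusted p under 0.05 there were 1051 genes (7.9%), 513 of them higher in BPA 25000 (3.85%) and 538 lower (4.04%). The libraries of the groups did not overlap in 286 genes that were higher in BPA 25000 (2.15%) and in 388 that were lower (2.91%). DESeq2 called 48 genes, 26 higher and 22 lower, and limma voom with sample weights called 744, 368 higher and 376 lower, with 36 genes called by both. Of the same 10 genes with small edgeR p, DESeq2 called 10 and limma voom 10. The 10 were picked by their edgeR p on the same counts, so this overlap is no separate support. With only these 8 libraries in the fit edgeR called 2, among them Krt5 (adjusted p = 0.033). The median standard error of a log2 fold change was 0.25, the median half-width of a 95% interval 0.52, and the median absolute log2 fold change 0.20.

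The count of 0 depended on single libraries. Without BPA 25000 library 3, edgeR called 6 genes, all higher in BPA 25000 and all with an adjusted p of 0.0423: Rgs5, Errfi1, F3, Plau, Ctsb and Cd69. All 6 were also among the 48 calls of DESeq2 and the 744 of limma voom on all libraries. The 6 were picked on the same counts, so this overlap is no separate support. The limma voom sample weights of BPA 25000 were 0.643, 3.2, 0.213 and 3.07 for libraries 1 to 4. The limma voom fit thus gave little weight to library 3 and leaned on libraries 2 and 4. Of the 6 genes, Ctsb was at 1050, 3364, 646 and 2353 CPM in BPA 25000 and at 866, 590, 607 and 868 CPM in EE2 0.5. Its log2 fold change was 1.34 (SE 0.34) with all libraries and 0.20 (SE 0.31) without BPA 25000 libraries 2 and 4. Without EE2 0.5 library 1 edgeR called 1, S100a1 (log2 fold change -1.81, adjusted p = 0.00832). Leaving out any of the other 6 libraries in turn gave 0.

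**Figure D1:**
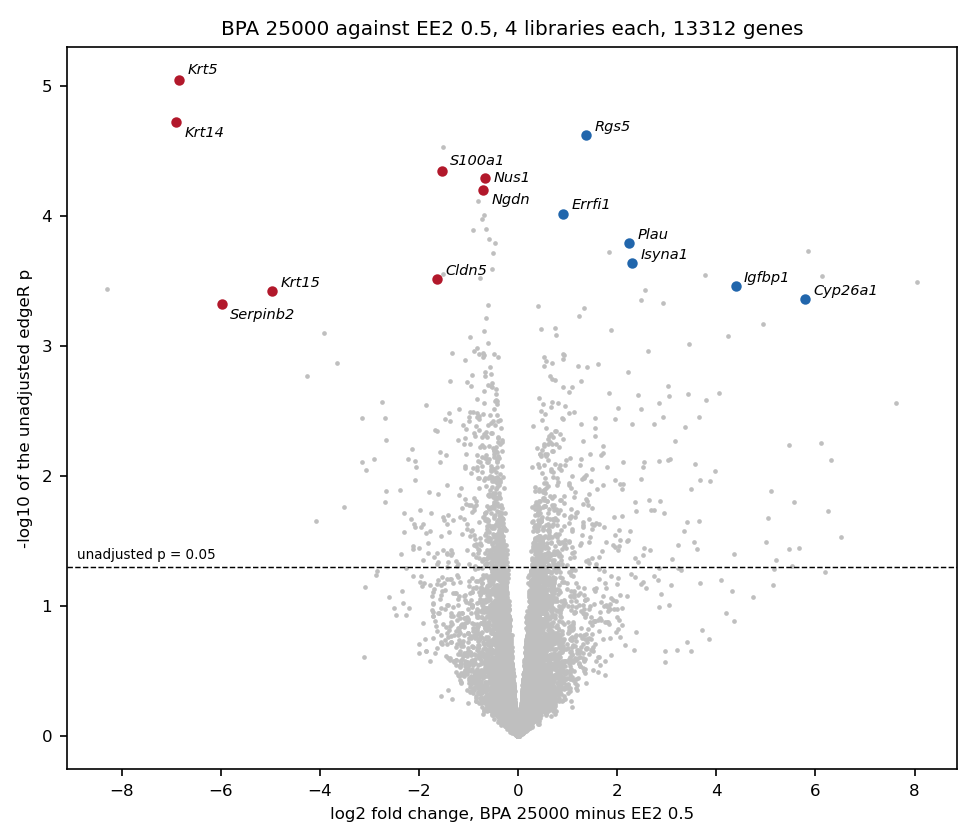
Log2 fold change (BPA 25000 minus EE2 0.5, x axis) against -log10 of the unadjusted edgeR p (y axis) for 13312 genes, 4 libraries per group; each point is a gene, red and blue points are named genes lower and higher in BPA 25000, and the dashed line is an unadjusted p of 0.05. Krt5 (-6.85) and Krt14 (-6.90) lie at the top left, and Cyp26a1 (5.79) lies far to the right with a larger p.

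Genes of stratified squamous epithelium had the largest median difference of the 32 gene lists under the filter used, and were higher in EE2 0.5. Krt5, the main type II keratin of basal cells, was at 0.433, 0.789, 1.81 and 0.373 CPM in BPA 25000 libraries 1 to 4 and at 60.3, 178, 19.5 and 132 CPM in EE2 0.5 libraries 1 to 4. Every EE2 library was above every BPA library, and the lowest EE2 value, in library 3, was above 10 times the highest BPA value, also in library 3. The log2 fold change was -6.85 (SE 1.27, 95% interval -9.45 to -4.25, edgeR adjusted p = 0.0983). Controls were at 0.0605 ± 0.0815 CPM (SD, n = 4), with 3 counts in all. Whether such a difference reflects fewer cells of a type or less RNA per cell cannot be told apart in whole tissue.

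Krt14, the keratin that pairs with Krt5, was at 0, 0.507, 0 and 0.0534 CPM in BPA 25000 and at 16.4, 28.3, 3.83 and 18.3 CPM in EE2 0.5. The groups did not overlap, and the log2 fold change was -6.90 (SE 1.35, 95% interval -9.66 to -4.14, edgeR adjusted p = 0.0983). Krt15, a further basal keratin, was at 1.04, 0.958, 6.8 and 2.35 CPM against 53.2, 159, 16.4 and 117 CPM, again without overlap (-4.96, SE 1.23, adjusted p = 0.162). The order of the EE2 libraries was the same for all 3 keratins, with library 2 highest and library 3 lowest. Keratins have near-identical stretches, and how reads shared between them were counted is not given in the sources used here.

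Krt13, a keratin of the upper layers of non-cornified stratified epithelium, was at 0.583 ± 0.497 against 8.81 ± 6.43 CPM (log2 fold change -3.91, SE 1.04, edgeR adjusted p = 0.228). Serpinb2, a serine protease inhibitor of squamous cells, was at 0.0866, 0, 0.329 and 0 CPM in BPA 25000 and at 6.7, 15.1, 1.16 and 5.01 CPM in EE2 0.5, with no overlap (-5.98, SE 1.49). Calml3, an epithelial calmodulin-like protein, was at 0.849 ± 0.62 against 6.37 ± 3.16 CPM (-2.91, SE 1.01). Tp63, the transcription factor that specifies stratified epithelium, differed less, at 2.33 ± 1.31 against 10.9 ± 8.47 CPM (-2.22, SE 0.77), and its control mean was 11.2 ± 7.34 CPM, near the EE2 value. In EE2 0.5 libraries 1 and 3 Tp63 was at 3.55 and 3.95 CPM, just above the highest BPA value of 3.35 CPM. Pkp1, a desmosomal plaque protein, was at 3.2 ± 0.433 against 8.51 ± 4.07 CPM (-1.41, SE 0.68).

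Krt4, the usual partner of Krt13, had 2 counts over the BPA libraries and 38 over the EE2 libraries, a ratio of 21.7 in favour of EE2 with a 95% counting interval of 5.62 to 186. Krt42, a keratin chosen for mention after its values were seen, had 0 counts in BPA 25000 and 161 in EE2 0.5, with 2.3, 4.75, 0.465 and 2.18 CPM in the 4 EE2 libraries. Against a floor of 3 counts over the BPA group that was at least 61.4-fold higher in EE2 0.5, and the 95% counting interval of the ratio had a lower limit of 49.4. The interval and the floor cover counting error only.

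Of the 23 genes listed for squamous epithelium, 21 were in the table and 18 passed the filter on low counts. Of those 18, 17 were below 0, 9 were lower at an unadjusted edgeR p under 0.05 (all genes: 4.04%), 0 were higher, and 0 passed over all genes. The 9 were Krt14, Krt5, Serpinb2, Krt15, Krt4, Krt13, Calml3, Tp63 and Pkp1. Some had few counts outside the EE2 groups, with 10 in BPA 25000 against 1124 in EE2 0.5 for Krt14 and 8 against 460 for Serpinb2. Such members may have passed the filter only through groups where they were high, and could then hardly come out higher in BPA 25000. The share over all genes is therefore not a like comparison for them. The median log2 fold change was -1.57, beside 0.02 over all genes tested. Members of the cornified layers differed less, with log2 fold changes of -0.50 for Krt1, -0.71 for Krt10, -0.49 for Sprr1a and -0.35 for Lypd3, and Col17a1, a hemidesmosome collagen of basal cells, was the 1 member above 0 (0.46). Summed over the list, BPA 25000 lay between 59.5 and 74.2 CPM and EE2 0.5 between 99.5 and 519 CPM, while controls, at 45.4 to 192 CPM, overlapped both. Without BPA 25000 library 3 the count of lower members was 8. A filter of 1 CPM in at least 16 libraries, which removes genes expressed in few groups, left 4 lower members and a median of -0.72. Under that filter motile cilia (1.13), red blood cells (-0.93) and eosinophils and mast cells (-0.85) had larger medians.

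**Figure D2:**
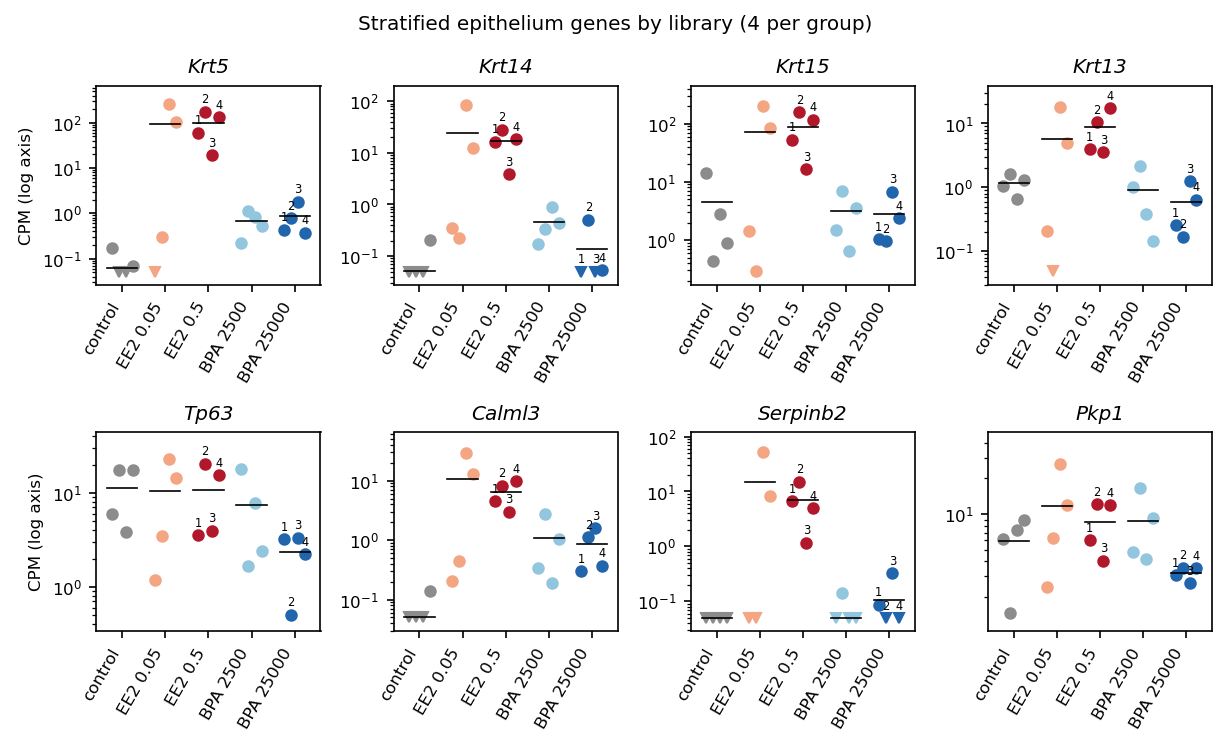
CPM (log axis) of 8 stratified epithelium genes in each library of control, the 2 EE2 and the 2 highest BPA doses (µg per kg per day), 4 points per group; horizontal lines are group means, numbers mark libraries 1 to 4 of the 2 top dose groups, and triangles are values under 0.05 drawn at 0.05. Krt5 separates the top doses by more than 10 times in every pair of libraries (lowest EE2 0.5 value 19.5, highest BPA 25000 value 1.81), while Tp63 barely does (3.55 and 3.35).

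Several other genes among those with the smallest p differed by less, and some of them had little spread. Rgs5, a regulator of G protein signalling typical of pericytes, was higher in BPA 25000, with 63.1, 68.5, 31.1 and 58.6 CPM in BPA 25000 and 27.2, 27.7, 17.4 and 13 CPM in EE2 0.5. The lowest BPA value, in library 3, was still above the highest EE2 value (log2 fold change 1.38, SE 0.27, 95% interval 0.82 to 1.94, edgeR adjusted p = 0.0983). Controls were at 27.3 ± 4.35 CPM, from which BPA 25000 differed by 1.02 (adjusted p = 0.0439) and EE2 0.5 by -0.36 (adjusted p = 0.563). These 2 comparisons share the control libraries, as do all pairs of comparisons with control given here. In the comparison of BPA 25000 with control 309 genes (2.32%) passed, and in that of EE2 0.5 with control 74 (0.556%). Without BPA 25000 library 3 the difference from EE2 0.5 was 1.57 (SE 0.27, adjusted p = 0.0423), and without libraries 2 and 4 it was 1.13 (SE 0.32, adjusted p = 0.578).

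S100a1, a calcium-binding protein of muscle, was at 6.02, 5.52, 4.66 and 5.44 CPM in BPA 25000 and at 5.65, 16.2, 20.7 and 20.3 CPM in EE2 0.5. EE2 library 1 lay among the BPA libraries and the other 3 were about 3 times as high (log2 fold change -1.54, SE 0.32, edgeR adjusted p = 0.113). Nus1, a subunit of the enzyme that makes dolichol, was at 95.4, 101, 99.97 and 104 CPM in BPA 25000 and at 139.88, 168, 166 and 163 CPM in EE2 0.5 (-0.67, SE 0.14, adjusted p = 0.113). The groups did not overlap, and controls, at 162 ± 21 CPM, were level with EE2 0.5. Ngdn, a translation regulator, was at 28.3 ± 2.2 against 46.1 ± 5.23 CPM (-0.70, SE 0.15, adjusted p = 0.119), with controls at 28.6 ± 0.76 CPM, level with BPA 25000. Errfi1, a feedback inhibitor of the EGF receptor, was at 93.1, 134, 66.1 and 114 CPM against 73.3, 36.7, 49.4 and 56.5 CPM (0.91, SE 0.20, adjusted p = 0.127), with BPA library 3 below EE2 library 1. Without libraries 2 and 4 the Errfi1 difference was 0.55 (SE 0.22).

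**Figure D3:**
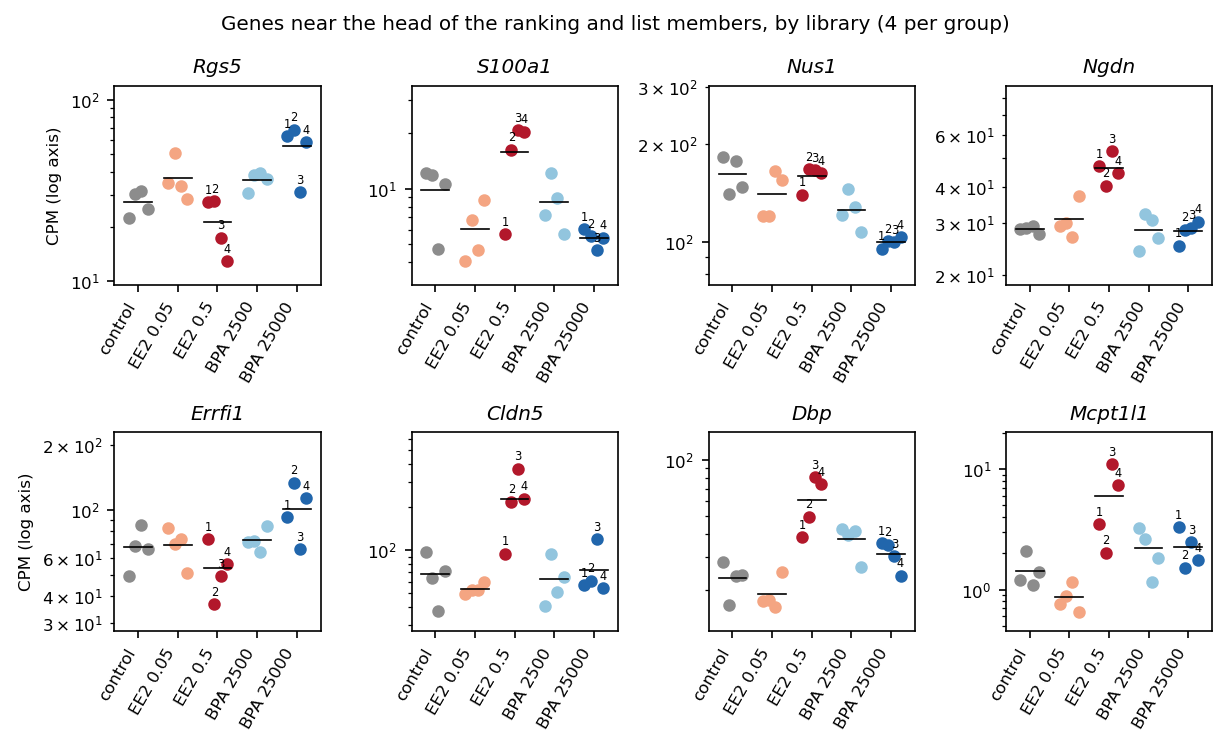
CPM (log axis) of 8 genes in each library of control, the 2 EE2 and the 2 highest BPA doses, 4 points per group, with group means as lines and numbers for libraries 1 to 4 of the top dose groups. Ngdn is higher in every EE2 0.5 library (40.2 to 52.8 CPM) than in BPA 25000, Nus1 is low in BPA 25000 (95.4 to 104 CPM), and S100a1 and Errfi1 each overlap between the top dose groups (EE2 0.5 library 1 at 5.65 CPM for S100a1, BPA 25000 library 3 at 66.1 CPM for Errfi1).

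Many of the genes that were higher in BPA 25000 had their highest values in BPA libraries 2 and 4, and some of these lay near the EE2 level in libraries 1 and 3. Among the 513 genes that were higher at an unadjusted p under 0.05, libraries 2 and 4 were the highest pair in 223 (43.5%), beside 21.4% of all genes tested; the other 5 pairs took 6.04% to 16.2%. With libraries 2 and 4 left out, a setting added after the data were seen, edgeR called 0 genes and 904 had an unadjusted p under 0.05. Of the 513 genes, 476 were still above 0 and 172 still had an unadjusted p under 0.05. Of all 13627 genes tested in that fit, 423 were higher at an unadjusted p under 0.05. The 513 were picked with libraries that also enter the reduced fit, so the 476 and 172 are no separate test.

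Plau, the urokinase-type plasminogen activator, was at 73.1, 303, 36.3 and 200.03 CPM in BPA 25000 and at 32.9, 32.3, 21.3 and 42.8 CPM in EE2 0.5. BPA library 3 lay within the EE2 range (log2 fold change 2.24, SE 0.52, 95% interval 1.19 to 3.30, edgeR adjusted p = 0.134). Without libraries 2 and 4 the difference was 0.75 (SE 0.50). F3, tissue factor, the trigger of blood clotting, was at 593, 3056, 118 and 2163 CPM against 313, 272, 193 and 225 CPM (2.56, SE 0.64, adjusted p = 0.162), and without libraries 2 and 4 at a difference of 0.49 (SE 0.60). In library 3 F3 was below all 4 EE2 libraries.

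Igfbp1, an insulin-like growth factor binding protein made by liver and by decidual cells, was at 5.16, 120, 1.7 and 75.3 CPM in BPA 25000 and at 2.89, 2.15, 1.57 and 2.99 CPM in EE2 0.5. Libraries 2 and 4 were more than 20 times as high as any EE2 library, and library 3 lay among them (log2 fold change 4.39, SE 1.08, edgeR adjusted p = 0.162; 0.51, SE 1.00, without libraries 2 and 4). Cyp26a1, which degrades retinoic acid and whose promoter is shown above, was at 9.14, 289, 5.43 and 180 CPM against 0.855, 1.52, 1.57 and 4.6 CPM. Here all 4 BPA libraries were above all EE2 libraries (5.79, SE 1.46, adjusted p = 0.176; 1.74, SE 1.35, without libraries 2 and 4). Controls were at 0.233 ± 0.169 CPM.

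Abcb1b, a multidrug efflux pump, was at 48.6, 767, 25.7 and 494 CPM in BPA 25000 and between 20.9 and 29.98 CPM in EE2 0.5 (log2 fold change 3.78, SE 0.91, edgeR adjusted p = 0.156; 0.60, SE 0.83, without libraries 2 and 4). Spp1, osteopontin, a secreted protein of glandular epithelium and macrophages, was at 115, 1421, 211 and 871 CPM against 101, 11.2, 50.7 and 128 CPM (3.17, SE 1.05; 1.16, SE 1.11, without libraries 2 and 4). Kcnj1, a potassium channel best known from kidney, had 724 counts in BPA 25000 and 2 in EE2 0.5, a ratio of 316 with a 95% counting interval of 87.2 to 2617, and the BPA libraries were at 0.78, 21.6, 0 and 17.2 CPM. That interval leaves out the spread between libraries: the fitted log2 fold change was 8.04 (SE 1.97) with all libraries and 3.43 (SE 2.07) without libraries 2 and 4. Cd69, an early activation marker of lymphocytes, was at 3.68, 39, 0.823 and 27.8 CPM against 3.48, 1.77, 1.98 and 2.13 CPM (2.93, SE 0.74). Its difference without libraries 2 and 4 was -0.06 (SE 0.68). F3, Abcb1b, Kcnj1 and Cd69 were named after their values were seen.

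2 more genes of this group kept part of their difference without libraries 2 and 4. Isyna1, the enzyme that makes inositol phosphate from glucose 6-phosphate, was at 86.7, 355, 105 and 192 CPM in BPA 25000 and at 31.9, 36.4, 29.8 and 51.7 CPM in EE2 0.5. All 4 BPA libraries were above all EE2 libraries (log2 fold change 2.302, SE 0.55, edgeR adjusted p = 0.153), and without libraries 2 and 4 the difference was 1.35 (SE 0.58). Elovl7, a fatty acid elongase, was at 7.36, 22.9, 5.65 and 15.2 CPM against 3.42, 4.43, 2.85 and 3.69 CPM, also without overlap (1.83, SE 0.43, adjusted p = 0.134). Without libraries 2 and 4 its difference was 0.84 (SE 0.45). The unadjusted edgeR p in that fit was 0.0697 for Elovl7 and 0.0286 for Isyna1.

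Estrogen targets did not run one way between the BPA libraries. In libraries 2 and 4 the progesterone receptor gene Pgr was at 72.1 and 78.7 CPM, the growth factor Igf1 at 54.4 and 76.1 CPM, and S100g, the calcium-binding protein calbindin-D9k, at 77.3 and 105 CPM. In libraries 1 and 3 Pgr was at 203 and 209 CPM, Igf1 at 198 and 150 CPM and S100g at 428 and 214 CPM. C3 and Lcn2, also on the estrogen list, went the other way: Lcn2, the iron-binding lipocalin, was at 125 and 131 CPM in libraries 2 and 4 and at 9.92 and 22.3 CPM in libraries 1 and 3, and C3 at 3826 and 4555 CPM against 1225 and 2912 CPM. These 5 genes were chosen for this comparison between libraries after their values were seen. The stage of the cycle at collection is not in the labels.

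**Figure D4:**
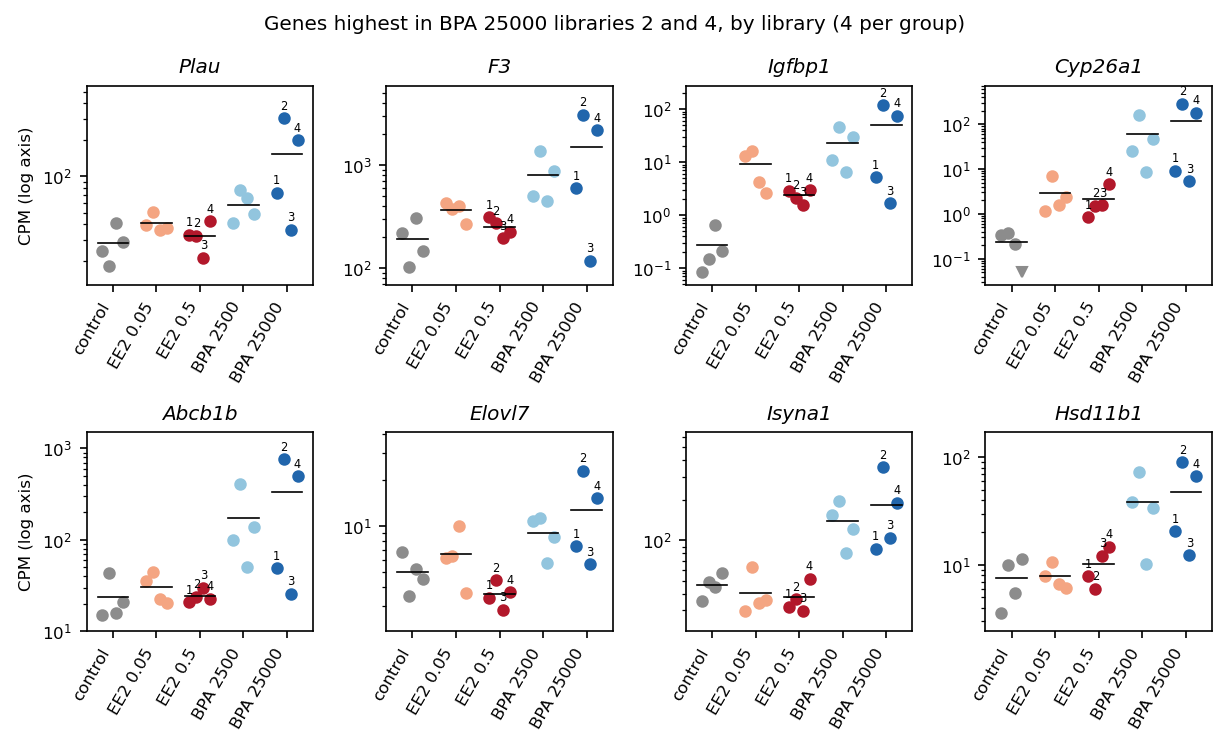
CPM (log axis) of 8 genes high in BPA 25000 libraries 2 and 4, in each library of control, the 2 EE2 and the 2 highest BPA doses, 4 points per group, with group means as lines, numbers for libraries 1 to 4 of the top dose groups, and triangles for values under 0.05. Libraries 2 and 4 are the upper pair in every panel (Cyp26a1 at 289 and 180 CPM), and libraries 1 and 3 lie near the EE2 0.5 libraries for Plau, F3, Igfbp1 and Abcb1b.

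With all libraries in the edgeR fit, no listed gene of the estrogen response differed at an unadjusted p under 0.05. Of 22 genes listed, 21 were in the table and 19 were tested; 0 were higher and 0 lower at an unadjusted edgeR p under 0.05, and the median log2 fold change was -0.16. Without BPA 25000 library 3, 3 members were lower and the median was -0.40; on all libraries, limma voom gave 5 lower and DESeq2 gave 1. Pgr was at 141 ± 75.5 CPM in BPA 25000 and 158 ± 56.4 CPM in EE2 0.5, and the interval of the difference ran from -0.88 to 0.55 on the log2 scale. C3, a complement component secreted by the estrogen-stimulated epithelium, was at 1225, 3826, 2912 and 4555 CPM against 3826, 2074, 3497 and 3032 CPM (log2 fold change 0.01, 95% interval -1.36 to 1.38). Igf1 was at 120 ± 66.3 against 161 ± 43.6 CPM (-0.43, -1.27 to 0.41), and both groups were below the controls at 441 ± 198 CPM. S100g was at 206 ± 159 against 137 ± 26.6 CPM (0.59, -0.93 to 2.10), with controls at 761 ± 237 CPM. Ltf, lactoferrin, was at 0.573 ± 0.396 against 2.22 ± 2.21 CPM (-1.95, -3.98 to 0.07). These intervals are wide, and a p above the threshold does not show that BPA and EE2 acted alike at these doses.

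The estrogen receptor gene Esr1 was at 145, 171, 131 and 158 CPM in BPA 25000 and at 136, 209.6, 119 and 70.7 CPM in EE2 0.5 (log2 fold change 0.18, 95% interval -0.26 to 0.62). The groups overlapped, and controls were at 146 ± 33.2 CPM. Esr2 was under 1 CPM in all 8 libraries. Of 15 steroid receptor and coregulator genes tested, 3 were lower in BPA 25000 at an unadjusted p under 0.05 (all genes: 4.04%) and 0 higher (median -0.00). The 3 were Nrip1, Nr3c1 and Ncoa1. Nrip1, a corepressor bound by the activated estrogen receptor, was at 184, 138, 162 and 186 CPM against 181, 316, 285 and 240 CPM, with EE2 library 1 among the BPA libraries (-0.61, SE 0.18, edgeR adjusted p = 0.293), and controls were at 335 ± 23.2 CPM. Nr3c1, the glucocorticoid receptor gene, was at 141 ± 43.7 against 204 ± 42 CPM (-0.53, SE 0.24). Without BPA library 3 the count of lower members was 1.

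Of 22 genes of steroid and BPA metabolism tested, 1 was higher at an unadjusted p under 0.05 (all genes: 3.85%) and 0 lower (median 0.11). That gene, Hsd11b1, which regenerates active glucocorticoid, was at 20.5, 90.2, 12.3 and 66.2 CPM in BPA 25000 and at 7.89, 6.02, 12.1 and 14.8 CPM in EE2 0.5 (log2 fold change 2.21, SE 0.63, edgeR adjusted p = 0.279; 0.67, SE 0.67, without libraries 2 and 4). Ugt1a6, a glucuronosyltransferase of phenols, was at 376 ± 126 against 291 ± 36.4 CPM (0.37, 95% interval -0.19 to 0.94). Sult1a1, a phenol sulfotransferase, was at 58.8 ± 23.1 against 32.2 ± 10.1 CPM (0.87, -0.15 to 1.88).

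**Figure D5:**
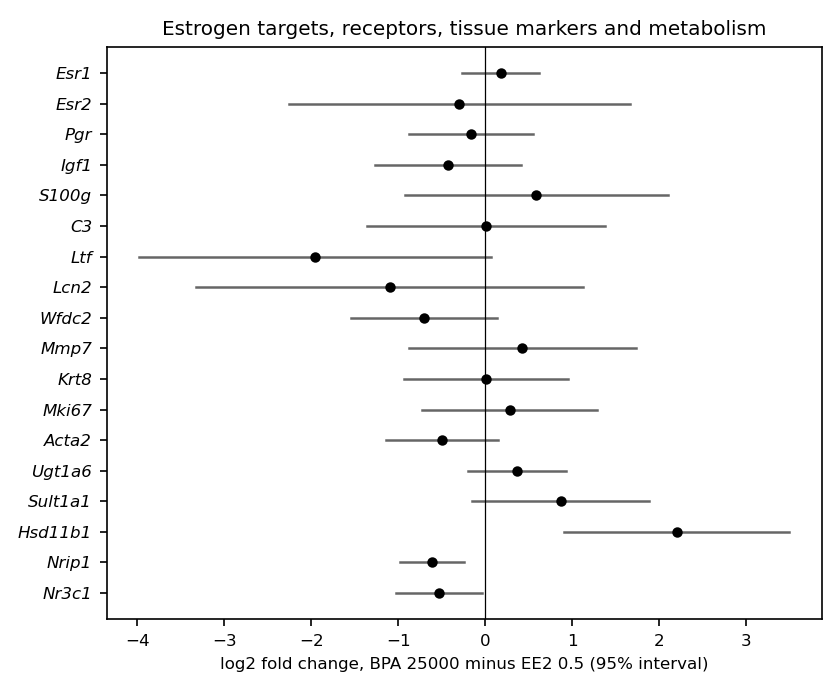
Log2 fold change (BPA 25000 minus EE2 0.5, points) with its 95% edgeR interval (lines) for 18 genes: receptors, estrogen targets, tissue markers and metabolic enzymes, 4 libraries per group. The intervals of Hsd11b1, Nrip1 and Nr3c1 leave out 0, and the others, among them Esr1 (-0.26 to 0.62) and Pgr (-0.88 to 0.55), include it.

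Progesterone-responsive genes gave 2 higher (all genes: 3.85%) and 0 lower of 17 tested (median 0.08). The 2 were Cyp26a1, described above, and Calca, the calcitonin gene, which was at 18.7, 2.99, 26.3 and 2.19 CPM in BPA 25000 and at 0.657, 1.2, 0.813 and 1.26 CPM in EE2 0.5 (log2 fold change 3.66, SE 1.15, edgeR adjusted p = 0.327). All BPA libraries were above all EE2 libraries, with libraries 1 and 3 highest, the reverse of Cyp26a1. Calca was at 0.172, 6.14, 9.42 and 4.32 CPM in the controls. From these BPA 25000 differed by 1.32 (edgeR adjusted p = 0.509) and EE2 0.5 by -2.34 (adjusted p = 0.306). In the retinoid list, 1 of 18 was higher (Cyp26a1) and 1 lower (all genes: 3.85% and 4.04%), with a median of -0.08. The retinoic acid receptor genes Rara, Rarb and Rarg had log2 fold changes of -0.26, -0.25 and 0.01, and Lrat, which stores retinol as an ester, had one of 1.32 without overlap of the groups.

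In the insulin-like growth factor system, 2 of 17 genes were higher (all genes: 3.85%) and 0 lower (median -0.00): Igfbp1 and Igfbp7. Igfbp7, a low-affinity binding protein, was at 543, 1732, 691 and 1164 CPM in BPA 25000 and at 409, 469, 490 and 585 CPM in EE2 0.5, with library 1 the only overlap (1.08, SE 0.32, edgeR adjusted p = 0.293; 0.33, SE 0.33, without libraries 2 and 4). Igfbp3, the main carrier in blood, did not reach an unadjusted p of 0.05, at 63.4 ± 15.6 against 105 ± 22.9 CPM (-0.73, SE 0.36), although the libraries did not overlap. The receptor genes Igf1r and Insr had log2 fold changes of 0.44 and 0.32.

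Among BMP and TGF beta genes, 1 of 26 was higher and 2 were lower (median 0.05), beside 3.85% and 4.04% of all genes. Of the lower ones, Bmp5, a ligand, was at 2.88 ± 0.253 against 7.25 ± 3.65 CPM with no overlap (-1.33, SE 0.37, edgeR adjusted p = 0.251), and Tgfb2, also a ligand, was the higher gene (1.30). Among Wnt genes, 1 of 26 was higher and 1 lower (median -0.16), with the same shares over all genes. Sfrp2, a secreted Wnt modulator of the stroma, was at 65.9, 50.5, 59.6 and 64.3 CPM against 67.8, 282, 99.1 and 175 CPM, the lowest EE2 library standing just above the highest BPA library (-1.38, SE 0.40, adjusted p = 0.29). The inhibitor Dkk1 was higher, at 4.1 ± 2.86 against 1.98 ± 0.699 CPM (1.04, SE 0.49). The ligands Wnt4, Wnt5a and Wnt7a had log2 fold changes of -0.06, -0.59 and -0.15, and 0 of these 3 had an unadjusted p under 0.05.

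Lists for other cell types of the uterus differed little on balance. Over all genes, 3.85% were higher and 4.04% lower at an unadjusted p under 0.05. Luminal and glandular epithelium had 1 higher (Spp1) and 0 lower of 21 tested, with a median of 0.13, and Krt8 was at 269 ± 121 against 267 ± 53.7 CPM (95% interval of the log2 difference -0.93 to 0.95). Smooth muscle had 0 and 0 of 19 (median -0.03), with the actin Acta2 at 5545 ± 389 against 7814 ± 2901 CPM (-0.49, -1.14 to 0.15). Endothelium and pericytes had 1 higher, Rgs5, and 1 lower of 16 (median -0.04). The lower gene was Cldn5, the tight junction protein of endothelium, at 56.8, 61.0, 119.5 and 54.2 CPM in BPA 25000 and at 94.5, 218, 370 and 229 CPM in EE2 0.5. Library 3 of each group was the highest (-1.65, SE 0.40, edgeR adjusted p = 0.156). Other endothelial genes did not share the difference, with log2 fold changes of -0.11 for Pecam1, 0.21 for Cdh5 and -0.23 for Kdr.

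Some mast cell and red blood cell genes were at lower levels in BPA 25000 than in EE2 0.5. Of 14 eosinophil and mast cell genes tested, 4 were lower at an unadjusted p under 0.05 (all genes: 4.04%) and 0 higher (median -1.01), all 4 of them mast cell genes: Tpsab1 (-1.91), Cma1 (-1.78), Fcer1a (-1.71) and Mcpt1l1. The mast cell protease gene Mcpt1l1 was at 3.29, 1.52, 2.47 and 1.76 CPM against 3.48, 2.03, 10.9 and 7.39 CPM, with overlap (-1.39, SE 0.43, edgeR adjusted p = 0.327), and it has close copies among which reads may have been split. Controls were lower than both, at 1.44 ± 0.44 CPM, from which EE2 0.5 differed by 2.04 (adjusted p = 0.0425) and BPA 25000 by 0.65 (adjusted p = 0.438). The eosinophil peroxidase gene Epx lay on the other side (1.52). Without BPA library 3 the count of lower members was 2, and without single libraries it ran from 1 to 6. Under the filter of 1 CPM in at least 16 libraries it was 1. At the next lower doses the same list had a median of 0.79, on the other side of 0.

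All 7 red blood cell genes tested were below 0, and 3 were lower at an unadjusted p under 0.05 (all genes: 4.04%), with a median of -0.97. Hba-a2, an alpha globin gene, was at 78, 75.2, 41.0 and 73.8 CPM in BPA 25000 and at 146, 109, 111 and 161 CPM in EE2 0.5, without overlap (log2 fold change -0.97, SE 0.33, edgeR adjusted p = 0.365). Hba-a1 ran in parallel (-0.92, SE 0.33), and the copies cannot be told apart by these counts. Controls were level with BPA 25000, at 64.9 ± 16.2 CPM for Hba-a2. Summed over the list, BPA 25000 lay between 121 and 345 CPM and EE2 0.5 between 458 and 563 CPM. Between the next lower doses this list had a median of 0.49, on the other side of 0, and Hba-a2 differed by 0.42 (SE 0.32). The part of these blood reads in other results was not tested.

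Macrophage genes gave 0 higher and 1 lower of 15 (median 0.03), and lymphocyte genes 0 and 0 of 14 (median -0.05). Interferon and antigen processing genes gave 1 higher and 0 lower of 23 (median 0.11). The shares over all genes were 3.85% higher and 4.04% lower. The interferon gene was Rsad2, an antiviral enzyme, at 24.8, 106, 11.1 and 85.7 CPM against 20.2, 25.4, 19.6 and 18.8 CPM (log2 fold change 1.44, SE 0.49). Without libraries 2 and 4 it was at -0.23 (SE 0.48). Neutrophil and inflammation genes gave 2 higher and 1 lower of 14 (median 0.55, all genes: 3.85% and 4.04%). Ptgs2, the inducible prostaglandin synthase, was at 21.6, 82.2, 18.9 and 53.4 CPM against 14, 22.9, 8.54 and 17.3 CPM (1.49, SE 0.59; 0.36, SE 0.67, without libraries 2 and 4). S100a9, a neutrophil protein, was at 2.4 ± 1.16 against 0.691 ± 0.553 CPM with no overlap (1.79, SE 0.64), and the lower gene was Nos2, the inducible nitric oxide synthase (-2.17).

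Clock genes gave 4 lower (all genes: 4.04%) and 0 higher of 15 (median -0.16): Dbp, Cry2 (-0.65), Nr1d1 (-0.51) and Tef. Dbp, an output gene of the circadian clock, was at 35.4, 34.9, 30.3 and 23.8 CPM in BPA 25000 and at 38.2, 49.5, 81.1 and 74 CPM in EE2 0.5 (log2 fold change -0.96, SE 0.30, edgeR adjusted p = 0.327). The groups did not overlap, though EE2 library 1 was close to the BPA libraries. At the next lower doses Dbp differed the other way (0.98, SE 0.30, unadjusted p under 0.05). The core genes Clock and Bmal1 had log2 fold changes of -0.02 and 0.25. Immediate early genes gave 2 higher and 2 lower of 23 (median 0.13, all genes: 3.85% and 4.04%). Jund was at 96 ± 10.6 against 155 ± 34.2 CPM (-0.69, SE 0.18), Fosl1 had a log2 fold change of -0.81, and Fosl2 (0.59) and Egr3 (2.42) were the higher ones.

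Genes of the respiratory chain and of the ribosome lay mostly above 0. Of 25 respiratory chain genes, 23 were above 0 and 5 higher at an unadjusted p under 0.05 (all genes: 3.85%), 0 lower, with a median of 0.42. Cox7b, a small subunit of complex IV, was at 77.8, 38, 47 and 41.5 CPM in BPA 25000 and at 35.2, 30, 26.9 and 18.4 CPM in EE2 0.5, without overlap (0.89, SE 0.28, edgeR adjusted p = 0.327), and controls were above both, at 71.2 ± 23.1 CPM. Of 25 ribosomal protein genes, 22 were above 0, 3 were higher and 0 lower (median 0.33). Rps27 was at 423, 152, 128 and 145 CPM against 128, 61.5, 84.9 and 77.6 CPM (1.27, SE 0.41), with BPA library 1 far above the rest. Leaving out single libraries moved these counts from 1 to 8 for the respiratory chain and from 0 to 9 for the ribosome. Without BPA library 3 they were 4 and 4.

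Of 10 motile cilia genes tested, 9 were above 0 and 1 was higher at an unadjusted p under 0.05 (median 1.14, all genes: 3.85%). Ccdc40, needed to assemble cilia, was at 0.736, 4.4, 0.384 and 3.68 CPM in BPA 25000 and at 0.263, 0.443, 0.465 and 0.253 CPM in EE2 0.5 (log2 fold change 2.66, SE 1.22; 0.66, SE 1.51, without libraries 2 and 4). Foxj1, the master regulator of motile cilia, was at 2.37 ± 1.5 against 1.17 ± 0.428 CPM (1.01, 95% interval -1.40 to 3.42). Of 26 cell cycle genes, 0 were higher and 0 lower (median 0.08), and the proliferation marker Mki67 was at 68.9 ± 23.5 against 56.6 ± 30.5 CPM (0.28, -0.72 to 1.29). Fat cell genes gave 2 higher and 1 lower of 14 (median 0.20, all genes: 3.85% and 4.04%). The fatty acid transporter Cd36, 1 of the 2, was at 31.5, 150, 16.5 and 106 CPM against 24.3, 25.7, 50.1 and 14.8 CPM, and its difference of 1.40 (SE 0.55) was -0.27 (SE 0.57) without libraries 2 and 4.

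The remaining lists gave 0 higher and 0 lower of 20 for collagens and matrix (median 0.08), of 20 for cholesterol synthesis (-0.04), of 11 for DNA methylation and silencing (-0.10), of 6 for mesothelium (-0.18) and of 2 for ovary and oviduct (0.07). Endometrial cancer genes gave 0 higher and 1 lower of 16 (-0.04), and skeletal muscle 0 and 1 of 6 (0.05), beside 4.04% of all genes lower.

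Several list values moved when BPA 25000 library 3 was left out. Of 13419 genes tested in that fit, 680 were higher and 714 lower at an unadjusted p under 0.05. Lower members then numbered 4 for BMP and TGF beta, 3 for the retinoid list, 3 for endometrial cancer genes, 3 and 0 higher for immediate early genes, 2 for Wnt signalling, 2 for endothelium and pericytes and 0 for neutrophils and inflammation. The median of collagens and matrix was then 0.29 and that of macrophages 0.27, with 1 macrophage gene higher and 0 lower. The medians of luminal and glandular epithelium (-0.11), fat cells (-0.07), cell cycle (-0.19) and skeletal muscle (-0.20) were then below 0, and that of lymphocytes (0.24) above 0.

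The next lower doses, BPA 2500 and EE2 0.05 µg per kg per day, offered a contrast that shares no library with the one above, although all 32 libraries share the estimate of spread. There edgeR called 2 genes (0.015%), Krt5 and Atp12a, both lower with BPA, and 1287 (9.67%) had an unadjusted p under 0.05. Krt5 was at 0.224, 1.14, 0.8291 and 0.528 CPM in BPA 2500 and at 0, 0.293, 266 and 104 CPM in EE2 0.05. EE2 libraries 3 and 4 were high, library 1 was at 0 and library 2 lay among the BPA values (log2 fold change -7.07, SE 1.29, adjusted p = 0.0494). Atp12a, a proton and potassium pump, differed by -4.10 there (SE 0.75, adjusted p = 0.0494) and by -0.37 between the top doses (adjusted p = 0.94). Leaving out any of the 4 BPA 2500 libraries, or EE2 0.05 library 4, ended both calls.

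Of the 1051 genes at an unadjusted p under 0.05 between the top doses, 780 (74.2%) had the same sign between the lower doses, beside 60.2% of all genes tested. By direction these were 387 of the genes higher in BPA (75.4%) and 393 of those lower (73.0%), and 173 also had an unadjusted p under 0.05 there with the same sign. The squamous list had a median of -1.5005 at the lower doses and -1.57 at the top doses. Krt14 differed by -5.75 and Serpinb2 by -7.99 on the log2 scale at the lower doses. In both genes EE2 0.05 libraries 3 and 4 were the high ones, with Krt14 at 85.1 and 12.6 CPM and Serpinb2 at 52.4 and 8.11 CPM.

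Of the genes high in BPA 25000 libraries 2 and 4, Cyp26a1 differed by 4.34 at the lower doses (SE 1.37), Abcb1b by 2.50 (SE 0.87), Isyna1 by 1.78 (SE 0.54) and Hsd11b1 by 2.31 (SE 0.64). All 4 had an unadjusted edgeR p under 0.05 there, and 0 of the 4 passed after adjustment. Cyp26a1 was at 25.6, 159, 8.74 and 46.7 CPM in BPA 2500 and at 1.18, 6.88, 1.54 and 2.35 CPM in EE2 0.05, with no overlap. Igfbp1 differed by 1.36 (SE 0.95), Plau by 0.51 (SE 0.50) and Cd69 by 0.05 (SE 0.70), all with an unadjusted p above 0.05. Rgs5 differed by -0.03 (SE 0.27). The difference between the 2 contrasts was itself tested in edgeR for every gene, and 0 passed at an adjusted p under 0.05, with 563 at an unadjusted p under 0.05.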

How the data were processed

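RNA from whole uteri, extracted with a Qiagen RNeasy Lipid kit per the labels' protocols, was sequenced as 32 Illumina libraries in 8 groups of 4. The raw counts per gene were deposited by the authors as 1 table. The submitters' processing notes name bcl2fastq, TopHat, edgeR and the rat build rn5. Tool versions, the read counter, its annotation and its strand setting are not stated in the labels, so antisense or overlapping genes cannot be told apart. Of 17327 identifiers, 17167 matched a RefSeq symbol; the other 160 held 1.82% of counts.

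In R 4.3.3, edgeR 4.0.16 was fitted by quasi-likelihood to all 32 libraries with 1 mean per group, TMM scaling and filterByExpr (minimum count 10, total 15), which left 13312 genes. p-values were adjusted by Benjamini-Hochberg over all genes tested, with a threshold of 0.05, and the code was tested on simulated data. Alternatives were DESeq2 1.42.0, limma voom 3.58.1 with sample weights, other scaling and filters, a robust spread, a fit of the 2 groups alone and leaving out each library. In the 8 libraries of the contrast, 3 counts equal 0.13 to 0.197 CPM, and over all 32 up to 0.267 CPM.

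Named genes were the 6 with the smallest p in each direction, a panel of estrogen and tissue genes, and up to 2 members of each list with the smallest p. Further members and F3, Abcb1b, Kcnj1, Cd69, Ctsb, Krt42 and Igfbp3 were added after their values were seen. A few genes that the rule named are not reported here, though counts over all genes and lists include them. The contrast, the gene lists and the members were chosen with earlier results of these data known.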

Additional observations from a re-analysis of the deposited data

Results flagged for a closer look

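Among 85 named genes, 170 groups of 4 libraries were examined for a single value far from the other 3, and 9 stood out; chance alone does so in about 1 in 20 groups. In BPA 25000 library 3, Cldn5 was at 119.5 CPM (others 54.2 to 61.0), Hba-a2 at 41.0 CPM (others 73.8 to 78.0) and the glucocorticoid receptor gene Nr3c1 at 76.0 CPM (others 158 to 169). This is also the library with the lowest correlation with the rest. In BPA 25000 library 1, Rps27 was at 423 CPM (others 128 to 152), and in library 2, Krt4 was at 0.113 CPM, where the other 3 were at 0.

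EE2 0.5 library 1 gave 4 of the 9 values. Nus1 was at 139.88 CPM there (others 163 to 168), Ndufa1, a subunit of respiratory complex I, at 42.5 CPM (others 19.5 to 22.2), the smooth muscle kinase Mylk at 2602 CPM (others 4082 to 4373), and Kcnj1 at 0.131 CPM, where the other 3 were at 0. The values of Krt4 and Kcnj1 rest on 2 counts each.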

How the results depend on the processing

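The count of genes called between the top doses, 0 in edgeR, was 48 with DESeq2, 744 with limma voom and sample weights, 2 with only the 2 groups in the fit, 4 at an adjusted p under 0.1 (chosen after seeing the data) and 0 to 6 without single libraries. It was 0 with DESeq2 size factors, without a filter, at 1 CPM in 16 libraries, with a robust spread and without BPA 25000 libraries 2 and 4. The unadjusted count of 1051 was 2940 with limma voom and 744 to 1394 without single libraries. Between the lower doses the count of 2 was 29 with DESeq2, 4 with limma voom, 0 at 1 CPM in 16 libraries, 0 when these 2 groups were fitted alone, 0 under a robust estimate and 0 to 4 without single libraries. Fewer genes were tested at 1 CPM; for the other settings the cause was not tested.

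Of 85 named genes, 85 kept their direction and side of the threshold with DESeq2 size factors, without a filter and with a robust spread; 25 passed in DESeq2 and 36 in limma voom. Direction reversed in limma voom for Cyp1a1 (0.53, from -1.30), Lcn2 (0.0605, from -1.10), S100g (-0.41, from 0.59), Sult1e1 (-0.74, from 0.09) and Krt8 (-0.15, from 0.01). Without BPA 25000 libraries 2 and 4 it reversed for Cd69 (-0.0558), Rsad2 (-0.23), Cd36 (-0.27), Ugt1a6 (-0.0567), Vegfa (0.0292), Igf1 (0.10), Pgr (0.37) and C3 (-0.60). Without single libraries the log2 fold change ran from -0.0304 to 0.48 for Esr1, -0.0547 to 0.86 for S100g, -0.43 to 0.0535 for Pgr, -1.23 to 0.24 for Esr2, -2.42 to 2.41 for Sult1e1, -0.31 to 0.22 for Krt8 and -0.23 to 0.28 for C3; the cause was not tested. None of these genes was called in edgeR with all libraries.

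No paired analysis was possible because the labels carry no replicate numbers, and library numbers given in accession order pair nothing. With 4 libraries per group, the median half-width of an unadjusted 95% interval was 0.52 on the log2 scale. An adjusted p over 13312 genes asks for more than that, and even Krt5 (-6.85, edgeR adjusted p = 0.0983) did not pass. Differences of that size or smaller, and larger ones in many genes, could therefore go undetected.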
